A study of Mus musculus with 6 samples.

Results

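The genes described are 6 Toll-like receptors (Tlr1, Tlr2, Tlr3, Tlr4, Tlr5 and Tlr9), the lipopolysaccharide (LPS) co-receptors Ly96, Cd14 and Lbp, and the adaptor Myd88. They were taken by symbol from a table of 18159 genes, in which all 10 were present, and 9 of them passed the filter on low counts. The 6 RNA-seq libraries come from intestinal epithelial cells of mice. Of these 3 are wild-type and 3 are called Git2-knockout in the titles and Git2 knockdown in the genotype field. The design text gives an age of 12 days for the mice and calls the samples enteroids, which are epithelial organoids grown from crypts. No treatment, microbial stimulus or strain is stated for either group, and nothing says whether the libraries of a group came from separate animals. The libraries held 16284414 to 19106581 estimated reads, lower in the 3 labelled Git2-knockout than in the 3 wild-type ones.

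Toll-like receptors recognise conserved molecules of microbes. Tlr2, paired with Tlr1 or Tlr6, senses bacterial lipoproteins at the cell surface, Tlr4 senses LPS and Tlr5 senses flagellin, while Tlr3 and Tlr9 sit in endosomes and sense double-stranded RNA and CpG-rich DNA. LPS reaches Tlr4 through a relay in which the serum protein Lbp extracts it, Cd14 takes it over, and Ly96 (MD-2), bound to the Tlr4 ectodomain, holds it. All of these receptors except Tlr3 signal through the adaptor Myd88 to IRAK kinases, TRAF6 and NF-kappaB. In the newborn gut, Tlr4 signalling in the epithelium is linked to necrotizing enterocolitis, the disease named in the series title. RefSeq genes matched by symbol, with their identifiers in brackets, place Tlr5 (53791) and Ly96 (17087) on chromosome 1 and Lbp (16803) on 2. Tlr2 (24088) lies on 3, Tlr4 (21898) on 4, Tlr1 (21897) on 5 and Tlr3 (142980) on 8. Tlr9 (81897) and Myd88 (17874) lie on 9 and Cd14 (12475) on 18.

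Git2, the targeted gene, was at 22.2, 23.7 and 22.7 CPM in wild-type and at 17.4, 15.5 and 16.8 CPM in the other libraries, which is 72.3% of wild-type, so its transcript level alone does not establish the genotype. CPM are reads per 1000000 of a library, scaled by TMM factors. Directions below are those of the libraries labelled Git2-knockout. The groups differed widely, and 57.0% of 13558 tested genes passed a Benjamini-Hochberg adjusted p of 0.05 in edgeR's quasi-likelihood test, 29.6% higher and 27.4% lower. Enterocyte markers were abundant in every library, with the 10 listed genes summing to 42168 to 42871 TPM in wild-type and 30188 to 31232 TPM in the other group. TPM are reads per unit of transcript length, scaled to 1000000 per library. RNA of other cells was present too. The 16 fibroblast and smooth muscle markers summed to 37.0 to 40.0 TPM in wild-type and 107 to 117 TPM in the other libraries, and 12 blood endothelial markers to 21.4 to 22.2 and 48.6 to 55.4 TPM. The 12 macrophage and monocyte markers summed to 299 to 304 and 317 to 320 TPM, but in CPM to 459 to 463 and 403 to 413, and 7 B cell markers to 20.9 to 21.6 and 8.47 to 9.90 TPM. The 7 neutrophil markers in the table summed to only 2.61 to 3.10 CPM in wild-type and 2.05 to 2.83 CPM in the other libraries. Of these, 2 passed the filter on low counts, while Mpo and Ly6g were at or near 0 in all libraries. In such bulk samples, fewer cells of a type and less RNA per cell cannot be told apart.

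Tlr2 and Tlr5 rose, Myd88 fell, and the other 6 tested genes, Tlr4 among them, did not pass the test. The 3 calls are 33.3% of the 9 tested members, below the 57.0% of all tested genes. The median log2 fold change was 0.15 for the members and 0.02 for all tested genes. CPM values of the groups did not overlap for Tlr2, Tlr4, Tlr5 and Myd88, 4 of the 9, where 62.9% of all tested genes did not overlap (32.3% with wild-type lower and 30.6% with it higher). In TPM 6 of the 9 did not overlap, Tlr3 and Ly96 in addition, beside 62.6% of all tested genes.

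**Figure D1:**
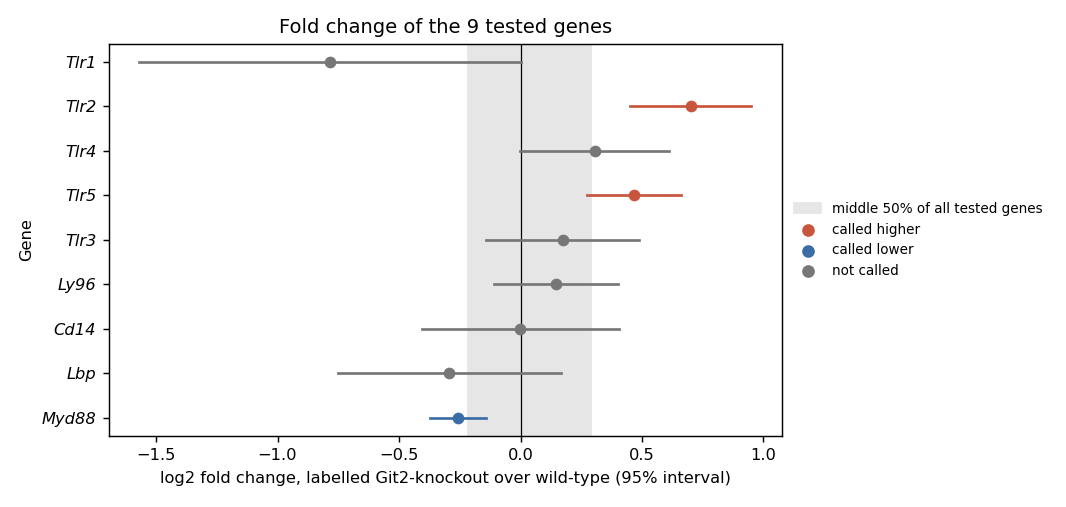
The log2 fold change (x axis, labelled Git2-knockout over wild-type) of each tested gene (y axis) from edgeR, with points at the estimate and lines over the 95% interval. The grey band spans the middle 50% of all tested genes, from -0.21 to 0.29. Of the called genes, Tlr2 at 0.70 and Tlr5 at 0.47 lie to the right of it and Myd88 at -0.26 just to its left. Tlr4 at 0.31, Lbp at -0.29 and Tlr1 at -0.78 lie outside it too, without being called.

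Per unit of transcript length the adaptor was the most abundant member and the LPS receptor itself one of the least. In wild-type libraries Myd88 was at 49.8 ± 0.385 TPM, Ly96 at 17.5 ± 1.21, Tlr5 at 8.66 ± 0.264, Tlr2 at 3.74 ± 0.282 and Cd14 at 2.46 ± 0.191 (mean ± SD, n = 3 libraries). Below them came Lbp at 1.64 ± 0.382 TPM, Tlr3 at 1.58 ± 0.119, Tlr4 at 0.837 ± 0.0961, Tlr1 at 0.65 ± 0.177 and Tlr9 at 0.19 ± 0.052 in the same libraries. Neighbours in this order did not overlap over the 3 libraries except Lbp with Tlr3 and Tlr4 with Tlr1. In the libraries labelled Git2-knockout the order was the same but for Lbp, at 1.503 ± 0.0503 TPM, which came after Tlr3 at 1.99 ± 0.203, and no neighbours overlapped. Myd88 exceeded 81.1% of all genes in the table in wild-type mean TPM, and Tlr4 31.5% of them.

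**Figure D2:**
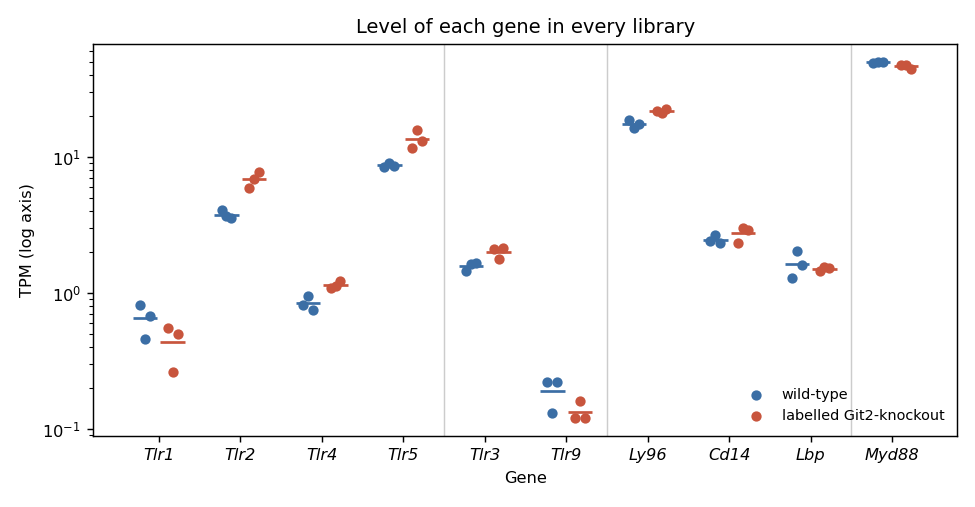
TPM on a log axis (y) for each gene (x), with 1 point per library and a bar at the mean of the 3 libraries of a group; vertical lines separate surface receptors, endosomal receptors, LPS co-receptors and the adaptor. Points of Tlr2 and Tlr5 from libraries labelled Git2-knockout sit above the wild-type ones, and Myd88, near 50 TPM in wild-type, is the highest gene in both groups.

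Promoter sequences are shown for the 3 called members, to set the genes that rose beside the adaptor that fell. RefSeq promoters of the GRCm38.p6 assembly were matched by symbol for 6 of the 10 members. The stretches run 5′ to 3′ along each gene's own strand and end at the annotated start, or earlier where a GENCODE transcript begins upstream. They cover chr1:182954538-182954787 (plus strand) for Tlr5, chr3:83841768-83841858 (minus strand) for Tlr2 and chr9:119340069-119340268 (minus strand) for Myd88. Capitals mark matches on either strand to any of 5 motifs, and adjoining or overlapping matches run together. The loose kappaB motif is GGG followed, after any 5 bases, by CC. The GC box is GGGCGG, the TATA box is TATAAA and the ETS core is CGGAAG. The IRF element is a pair of GAAA repeats with any 2 bases between them.
Tlr5: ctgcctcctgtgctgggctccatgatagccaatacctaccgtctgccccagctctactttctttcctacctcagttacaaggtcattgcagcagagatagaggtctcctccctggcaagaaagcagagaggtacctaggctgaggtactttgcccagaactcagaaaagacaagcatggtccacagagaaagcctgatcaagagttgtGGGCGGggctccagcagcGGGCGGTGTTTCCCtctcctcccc
Tlr2: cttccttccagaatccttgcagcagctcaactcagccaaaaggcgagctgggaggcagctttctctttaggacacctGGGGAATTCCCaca
Myd88: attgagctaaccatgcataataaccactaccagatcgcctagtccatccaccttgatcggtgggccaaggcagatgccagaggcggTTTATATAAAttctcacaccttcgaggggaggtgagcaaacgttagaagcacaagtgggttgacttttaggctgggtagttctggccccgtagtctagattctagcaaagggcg

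Among all 27025 RefSeq genes with a promoter in the table, 45.4% hold the loose kappaB motif in the 250 bases before the start, 32.9% the GC box, 13.0% the TATA box, 3.04% the IRF element and 13.8% the ETS core. In Tlr5 a kappaB match begins 20 bases before the start, overlapping a GC box that begins at 24, and a second GC box begins at 42. In Tlr2 overlapping kappaB matches begin 173 and 172 bases before the start, and its GC boxes, at 69 and 48, lie in the part that is not printed. Myd88 has overlapping TATA box matches on opposite strands, at 164 and 160. Its GC box, at 55, runs past the end of the printed stretch and is left in lower case. An IRF element lies at 40, outside that stretch. The kappaB letters were not in the Myd88 window. These are matches of letters and show no binding.

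Tlr2, the receptor for lipoproteins, had the largest rise of the members. Its level was 5.59, 5.07 and 4.95 CPM in wild-type replicates 1 to 3 and 7.53, 8.38 and 9.48 CPM in the libraries labelled Git2-knockout, so the lowest of the latter lay above the highest wild-type library. Group means were 5.21 ± 0.342 and 8.46 ± 0.979 CPM (SD, n = 3 each), a 1.63-fold rise with a 95% interval of 1.37 to 1.93. In log2 terms it rose by 0.70 (SE 0.12, adjusted p = 9.30e-05 in edgeR's quasi-likelihood test), a larger change than in 90.1% of tested genes. Tlr2 kept this call under all 20 other settings tried, where its log2 fold change ran from 0.60 to 0.84. The fibroblast markers had a median log2 fold change of 1.45 in the same libraries, the endothelial markers 1.14 and the macrophage markers 0.10. Their part in the rise of Tlr2 was not tested.

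Tlr5, the flagellin receptor, rose less. It was at 15.2, 16.1 and 15.4 CPM in wild-type and at 19.0, 24.8 and 20.7 CPM in the other group, again without overlap and with a wider spread among the libraries labelled Git2-knockout. Averaged by group this was 15.6 ± 0.453 and 21.5 ± 3.01 CPM (SD, n = 3 each), a 1.38-fold rise (95% interval 1.21 to 1.58). On the log2 scale the rise was 0.47 (SE 0.09), which passed edgeR's test (adjusted p = 3.88e-04). It passed under all 20 other settings as well, at 0.34 to 0.62. In the small intestine of mice Tlr5 has been described mainly in Paneth cells. Of 8 tested Paneth cell markers 1 rose and 6 fell in edgeR (87.5%, beside 57.0% of all tested genes). With length and GC trends removed 3 rose and 0 fell (37.5%, beside 43.8% of all tested genes). The summed Paneth markers ran from 1960 to 2036 TPM in wild-type and from 1717 to 1948 TPM in the other libraries. Their part in the rise of Tlr5 was not tested.

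Tlr1, which pairs with Tlr2, had few reads, and part of them could not be told apart from those of Tlr6, its neighbour on chromosome 5 and close relative. Its estimated reads were 20.76, 11.23 and 18.1 in wild-type replicates 1 to 3, against 10.87, 5 and 9.78, and those of Tlr6 were 2.24, 7.77 and 3.47, then 4.13, 1 and 6.22. Both genes had fractional estimates in 5 of the 6 libraries, and the sum of both was 23, 19, 21.57, 15, 6 and 16. In 4 of those 5 libraries the sum was whole within 0.021 reads. In Git2-knockout replicate 2 both estimates were whole to begin with. No other gene in the table complemented the fractions of Tlr1 in this way. The sum came to 63.57 reads in wild-type and 37 in the libraries labelled Git2-knockout, with the latter all below the former. These reads are not scaled to depth, which was lower in the libraries labelled Git2-knockout. Tlr1 alone had a log2 fold change of -0.78 (SE 0.37, edgeR adjusted p = 0.0817) and overlapping groups. With both genes counted as 1, a choice made after seeing the data, it was -0.63 (edgeR adjusted p = 0.104). Its size moved with the libraries included. Tlr1 alone lay at -0.51 without Git2-knockout replicate 2 (edgeR adjusted p = 0.285) and at -0.58 without wild-type replicate 1 (adjusted p = 0.264). It passed at -1.01 without wild-type replicate 2 (adjusted p = 0.0382), at -1.03 without Git2-knockout replicate 1 (adjusted p = 0.0423), and with all 6 libraries at -0.90 once length and GC trends were removed (adjusted p = 0.0463).

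**Figure D3:**
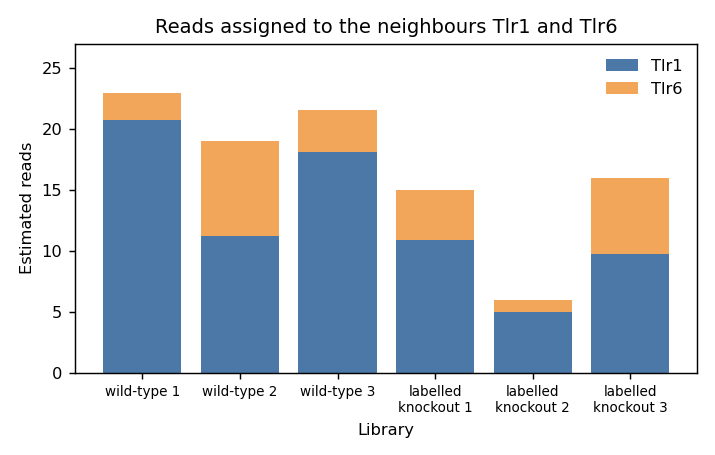
Estimated reads (y axis) assigned to Tlr1 and Tlr6 in each library (x axis), stacked. Bars of the wild-type libraries reach 23, 19 and 21.57, and those labelled Git2-knockout 15, 6 and 16, while the portion given to Tlr6 varies from 1 to 7.77 reads.

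Tlr4, the LPS receptor, did not pass the test. Its estimated reads numbered 60, 69 and 55 in the wild-type libraries against 66, 66 and 72.81. Scaled to depth these were 3.23, 3.68 and 2.93 CPM, then 4.01, 3.87 and 4.30 CPM, so the groups did not overlap. It differed by 0.31 on the log2 scale (SE 0.14, edgeR adjusted p = 0.0821), with a 95% interval of the fold change of 1.00 to 1.53. Its direction depended on the processing, with a turned sign under 1 of 19 other settings, the removal of length and GC trends. With the trend of fold changes along transcript length removed it lay at 0.00303, and with length and GC trends both removed at -0.33 (edgeR adjusted p = 0.0675). On log2(TPM + 1) it passed at 0.23 (limma-trend adjusted p = 0.0476), a scale on which the median of all genes lay at 0.14. That call was lost on log2(TPM + 0.1), where Tlr4 lay at 0.42 (limma-trend adjusted p = 0.0623). The transcript length implied by the deposited values was 7832 to 8161 bases for Tlr4, the longest of the members, and its longest GENCODE transcript had a GC content of 39.4%, with only 4.45% of tested genes lower. The sign of the Tlr4 difference was therefore not settled.

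The co-receptors of Tlr4 gave 0 calls among 3 tested genes with edgeR, 0 at an unadjusted p under 0.05, where 61.3% of all tested genes passed, and 0 with DESeq2, which called 42.2% of genes. Ly96, the subunit that holds LPS, was at 5.06, 4.49 and 4.79 CPM in wild-type and 5.46, 5.04 and 5.36 CPM in the other group, with overlap. Its log2 fold change was 0.15 (SE 0.12, edgeR adjusted p = 0.317), a fold change of 1.11 with a 95% interval of 0.927 to 1.32. In TPM, however, the groups separated, at 18.8, 16.4 and 17.4 against 21.9, 21.0 and 22.3, and limma-trend on log2(TPM + 1) called the rise of 0.30 (adjusted p = 0.00386). This is 0.16 above the median of all genes on that scale. With the length trend removed, where 52.9% of tested genes were called, Ly96, at 547 to 554 bases the shortest member, was called at 0.56 (edgeR adjusted p = 7.20e-04), and with length and GC trends removed it was at 0.30 (adjusted p = 0.0516).

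Cd14, which passes LPS on to the receptor complex and marks monocytes and macrophages, was at 1.88, 2.14 and 1.86 CPM in wild-type and 1.70, 2.11 and 2.06 CPM in the other libraries. The groups overlapped. With 28 to 40 estimated reads per library, its fold change of 0.999 had a 95% interval of 0.754 to 1.32 (log2 fold change -0.00143, edgeR adjusted p = 0.997). The macrophage markers held 4 rises and 1 fall among 12 tested genes in these libraries (41.7%, beside 57.0% of all tested genes). The fall was in Csf1r, from 197 to 90.7 CPM. Lbp, the protein that extracts LPS from bacterial membranes, was at 1.56, 2.51 and 1.97 CPM in wild-type and at 1.64, 1.64 and 1.65 CPM in the libraries labelled Git2-knockout. Wild-type replicate 1 lay below all 3 libraries of the other group and the remaining ones above. Its log2 fold change of -0.29 did not pass (SE 0.22, edgeR adjusted p = 0.261, 95% interval of the fold change 0.594 to 1.12).

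Within the LPS receptor complex the transcripts stood far apart. Ly96 exceeded Tlr4 by 17.4 to 23.2 times in TPM in wild-type and by 18.2 to 20.3 times in the other libraries, so the ratio ranges overlapped. Cd14 exceeded Tlr4 by 2.85 to 3.09 times in wild-type and by 2.15 to 2.67 times in the libraries labelled Git2-knockout, ranges that do not overlap. The direction of this difference turned with the processing. Cd14 minus Tlr4 in log2 fold change was -0.31 in edgeR, 0.14 with the length trend removed and 0.54 with length and GC trends removed. Ratios within a library do not depend on its scaling, but they do depend on the implied lengths. These differed little between the groups, with the group mean in the libraries labelled Git2-knockout at 101% of wild-type for Tlr4, 99.6% for Ly96 and 100.1% for Cd14.

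Of the endosomal receptors only Tlr3 could be tested. Tlr3, which senses double-stranded RNA and signals through Ticam1 in place of Myd88, was at 3.07, 3.36 and 3.67 CPM in wild-type and 4.01, 3.34 and 4.06 CPM in the other group, with overlap. Its log2 fold change was 0.17 (SE 0.15, edgeR adjusted p = 0.334, 95% interval of the fold change 0.907 to 1.40), and it was -0.26 with length and GC trends removed (adjusted p = 0.165). Tlr9, the receptor for CpG-rich DNA, had 6.99, 4 and 7 estimated reads in the wild-type libraries against 3, 4 and 3. The filter removed it, and with no filter its log2 fold change was -0.69 (edgeR adjusted p = 0.399), so no difference was detectable at this depth.

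Myd88, the adaptor shared by the surface receptors and Tlr9, fell. It was at 45.6, 46.7 and 47.0 CPM in wild-type and at 40.7, 39.0 and 36.7 CPM in the libraries labelled Git2-knockout, with no overlap. Averages were 46.4 ± 0.751 and 38.8 ± 1.997 CPM (SD, n = 3 each), a level of 0.836 of wild-type (95% interval 0.772 to 0.906). This fall of 0.26 on the log2 scale (SE 0.05, edgeR adjusted p = 7.36e-04) was larger in size than the change of 51.8% of tested genes. In TPM Myd88 was at 49.31, 50 and 49.95 and at 47.46, 47.65 and 44.4, still without overlap. On log2(TPM + 1) it lay at -0.10 (limma-trend adjusted p = 0.098), which is 0.24 below the median of all genes on that scale, and with length and GC trends removed at -0.07 (edgeR adjusted p = 0.255). The call therefore did not hold under those settings, although the direction did. The ratio of Tlr5 to Myd88 in TPM went from 0.174 ± 0.00456 to 0.290 ± 0.0430 and that of Tlr2 to Myd88 from 0.0753 ± 0.00625 to 0.147 ± 0.0250 (SD, n = 3 each). Both ratios had to separate the groups, because each of these genes already did so in TPM, and they are no further result.

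The groups also differed in mean transcript length weighted by TPM, as implied by the deposited FPKM totals. It was 2041 to 2061 bases in wild-type and 2175 to 2276 bases in the other libraries. On log2(TPM + 1) 75.1% of all calls were upward, against 51.9% in edgeR. There 4 members were called higher (Tlr2, Tlr4, Tlr5 and Ly96) and 0 lower, where 56.1% of all tested genes were called, 42.1% higher and 14.0% lower. With length and GC trends removed 2 members were called higher, Tlr2 and Tlr5, and 1 lower, Tlr1 (-0.90, edgeR adjusted p = 0.0463), against 18.4% and 25.4% of all tested genes (43.8% in all).

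**Figure D4:**
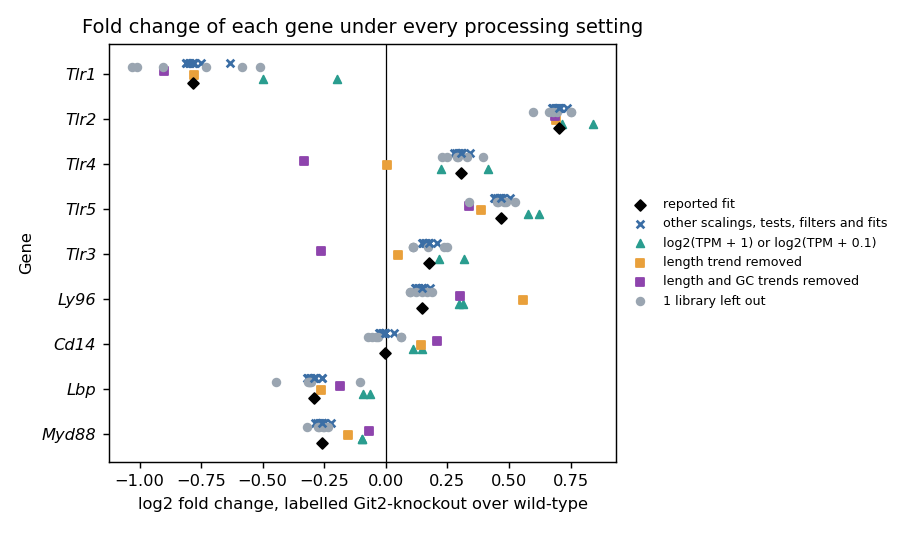
The log2 fold change (x axis, labelled Git2-knockout over wild-type) of each tested gene (y axis) in the reported fit (diamonds) and under the other settings, with colours and shapes for the kind of setting. Tlr2, at 0.60 to 0.84, and Tlr5, at 0.34 to 0.62, stay right of 0 throughout, while Tlr4 and Tlr3 reach -0.33 and -0.26 with length and GC trends removed.

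The remaining genes of the pathway moved in both directions. Of 52 other Toll pathway genes listed by role, 51 were in the table and 44 were tested, of which 14 rose and 12 fell. That is 59.1%, close to the 57.0% of all tested genes, and the median log2 fold change was 0.08. On log2(TPM + 1) 24 rose and 5 fell (65.9%, beside 56.1% of all tested genes). With length and GC trends removed 8 of 42 rose and 12 fell (47.6%, beside 43.8%), so the balance turned towards falls.

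Of 3 other receptors tested 2 rose and 0 fell (66.7% called, beside 57.0% of all tested genes). Tlr7, which senses single-stranded RNA in endosomes, went from 5.95 ± 0.625 to 7.88 ± 0.171 CPM (SD, n = 3 each; log2 fold change 0.40, edgeR adjusted p = 0.00537). It lay at -0.06 with length and GC trends removed. Tlr12, which senses a parasite profilin, rose by 0.69 on the log2 scale (edgeR adjusted p = 0.0188), a call lost when wild-type replicate 1, wild-type replicate 2 or Git2-knockout replicate 2 was left out and with DESeq2. Tlr8 had a log2 fold change of 0.60 without passing (edgeR adjusted p = 0.0932). Tlr13, a receptor for bacterial ribosomal RNA, had 3, 5 and 4.04 reads in the wild-type libraries against 9, 12 and 8, and the filter removed it.

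Among accessory proteins the scavenger receptor Cd36, a co-receptor of Tlr2 with Tlr6, went from 2.78 ± 0.590 to 7.71 ± 0.788 CPM (log2 fold change 1.47, edgeR adjusted p = 6.49e-07). Cd36 is also expressed by capillary endothelium and by enterocytes. Of the listed endothelial markers 11 of 12 rose and of the enterocyte markers 9 of 10 fell, where 29.6% of all tested genes rose and 27.4% fell. The part of these cells in the rise of Cd36 was not tested. Tril, an accessory protein of Tlr4 and Tlr3, had 8, 3 and 4.77 reads in wild-type and 21 in each of the other libraries (log2 fold change 2.10, edgeR adjusted p = 9.25e-05). Unc93b1, which carries the endosomal receptors out of the endoplasmic reticulum, fell by 0.22 on the log2 scale (edgeR adjusted p = 0.0118) but lay at -0.01 with length and GC trends removed.

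Next to Myd88, the adaptor Ticam1 of Tlr3 and Tlr4 fell from 76.9 ± 1.35 to 65.8 ± 2.37 CPM (log2 fold change -0.22, edgeR adjusted p = 8.66e-04), a call lost on log2(TPM + 1), where it lay at -0.06. Tirap, which recruits Myd88 to Tlr2 and Tlr4, did not pass (0.14, adjusted p = 0.143). Of the kinases that Myd88 recruits, Irak1 lay at -0.12 and Irak4 at -0.04 (edgeR adjusted p = 0.0678 and 0.631). The ubiquitin ligase Traf6 and the TAK1 subunit Tab3 rose by 0.38 and 0.54 (edgeR adjusted p = 8.26e-05 and 1.22e-06), and with length and GC trends removed they lay at 0.06 and 0.05. Ube2v1, a partner of the ubiquitin enzyme that works with Traf6, fell by 0.33 (adjusted p = 3.73e-05).

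Of 7 inhibitors 2 rose and 2 fell (57.1%, beside 57.0% of all tested genes). The deubiquitinase Cyld rose by 0.38 (edgeR adjusted p = 7.59e-06) but lay at -0.09 with length and GC trends removed, and Tollip rose by 0.12 (adjusted p = 0.0139), a call lost under 7 of 19 other settings. Sigirr, a membrane inhibitor of Toll and interleukin receptors, fell by 0.15 (adjusted p = 0.0347) and lay at 0.15 with length and GC trends removed and at 0.01 on log2(TPM + 1). The interferon regulator Irf7 fell by 0.29 (adjusted p = 5.25e-05) and lay at -0.05 with length and GC trends removed. Alpi, the brush border phosphatase that detoxifies LPS, was the most abundant gene of this list in TPM. It fell from 2943 to 2510 CPM (log2 fold change -0.23, edgeR adjusted p = 3.95e-05). Falls were called in 9 of 10 enterocyte markers, of which Alpi is 1, and in 27.4% of all tested genes. On log2(TPM + 1) Alpi lay at -0.07 and did not pass (limma-trend adjusted p = 0.0987). Akp3, another intestinal phosphatase, had 3.22 to 8.41 reads per library and was not tested.

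**Figure D5:**
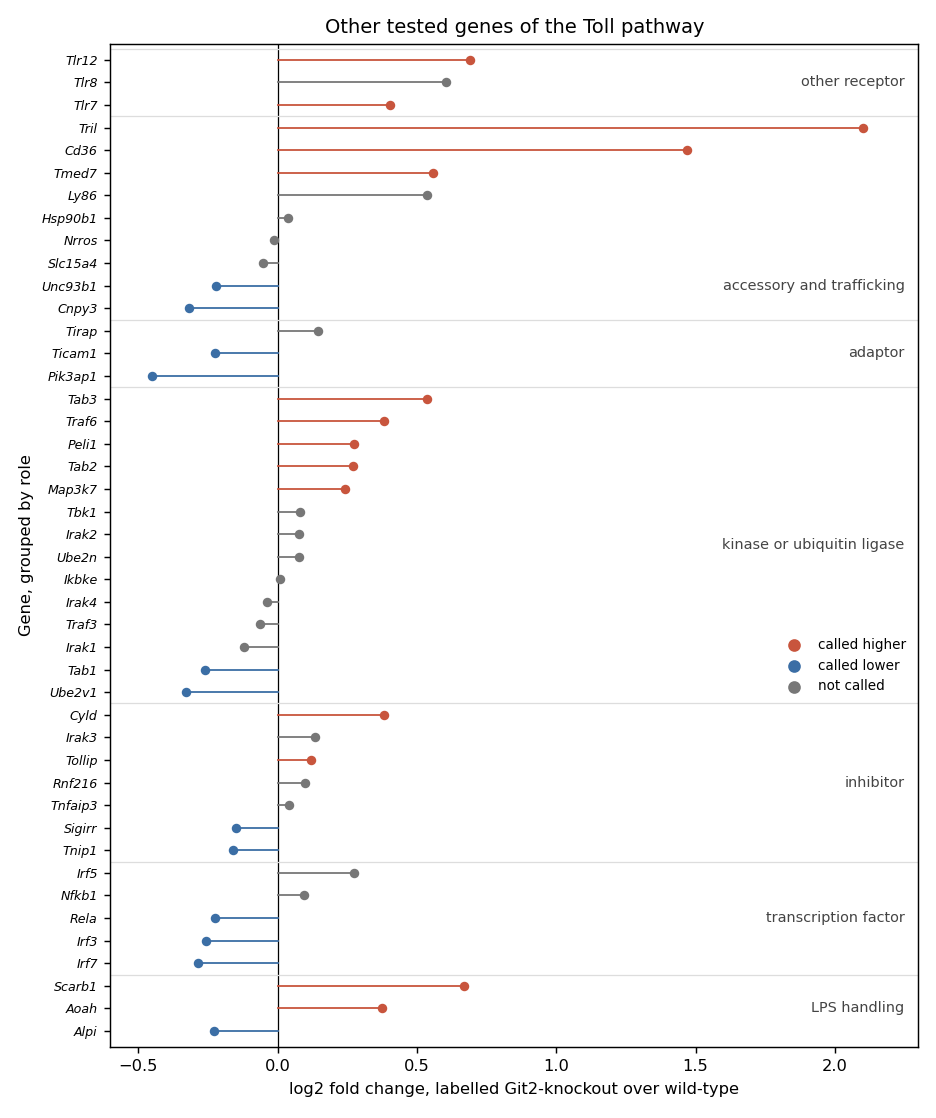
The log2 fold change (x axis, labelled Git2-knockout over wild-type) of the 44 other tested Toll pathway genes (y axis), grouped by role and coloured by the edgeR call. Rises and falls occur among accessory proteins, kinases, inhibitors and LPS handling genes; Tril at 2.10 and Cd36 at 1.47 are the largest.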

How the data were processed

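Poly(A)-selected RNA of 6 mouse libraries was sequenced, 3 per group. The deposited table gives RSEM estimated counts, FPKM and TPM per gene. Tools named in the submitters' processing notes are RSEM, HISAT and Bowtie2, without versions, and the build is GRCm39. The deposited FPKM, which are scaled to length and depth, served only to derive the mean transcript length, and the authors' group averages were not used. Between 58.9% and 69.2% of estimated counts were not whole. Counts were rounded and tested in R 4.3.3 with edgeR 4.0.16 (filterByExpr, TMM, robust quasi-likelihood fit, Benjamini-Hochberg adjustment over 13558 genes), and a gene was called at an adjusted p of 0.05. Alternatives used DESeq2 1.42.0, limma 3.58.1 on the deposited TPM, other scalings and filters, a replicate block, leave-one-out fits, and offsets that removed loess trends (span 0.5) along length and GC content. Length, from counts over TPM, covered 96.2% of tested genes and GC content, from GENCODE M21 transcripts on GRCm38, 97.3%. The code was tested on simulated data. The sum of Tlr1 and Tlr6 was added after seeing the data.

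Members and gene lists were chosen with earlier results of these data known. Besides the members, the genes named are, by rule, the 3 rises and 3 falls of smallest p in the list of other Toll pathway genes, a fixed set of partners, at most 2 markers per cell type, a fixed set of other sensors, and the 5 tested genes with the highest correlation with Tlr4. Tlr12 was named after its values were seen. Nothing says that the libraries of a group came from separate animals, so p-values measure the spread between libraries, which may be technical. Replicates differed by more than counting noise, with a chi-square per degree of freedom of 1.59 to 7.20 within groups and 30.1 to 43.0 between them. Tlr1, Tlr3, Tlr4, Tlr9, Ly96, Cd14 and Lbp had at most 94 estimated reads in every library, where counting error weighs most. Promoter sequences are RefSeq's, on GRCm38.p6.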

Additional observations from a re-analysis of the deposited data

How the results depend on the processing

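Under 20 alternatives the count of members called higher stayed at 2 except with limma-trend on log2(TPM + 1), where it was 4, and with limma-trend on log2(TPM + 0.1) or the length trend removed, where it was 3. Members called lower numbered 1, but 0 with limma-trend on log2(TPM + 1) or log2(TPM + 0.1), and 1 to 2 when each library was left out in turn. They numbered 2 without wild-type replicate 2 and without Git2-knockout replicate 1, where Tlr1 joined Myd88. Of the other Toll pathway genes, 24 were called higher with either TPM fit and 8 with length and GC trends removed (12 lower there), against 14, and 5 were called lower with either TPM fit, against 12. Signs turned for Tlr4 (-0.33) and Tlr3 (-0.26) with length and GC trends removed. The value of Cd14, near 0 at first, turned to 0.0341 with library totals, 0.11 and 0.15 with the TPM fits at pseudocounts 1 and 0.1, 0.14 with the length trend and 0.21 with both trends removed. Leaving out each library in turn gave -0.0704 to 0.0628, with 0.062 without wild-type replicate 2 and 0.0628 without Git2-knockout replicate 1. The cause of these shifts was not tested.

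With a replicate block 2 members were called higher and 1 lower, as without it. Deviations of same-numbered libraries correlated at 0.041, -0.001 and 0.050, and wild-type replicate 2 correlated best with replicate 1 of the other group, so the numbers are not treated as pairs.

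Depth limits what can be said of Tlr1 and Tlr9, which had at most 20.76 estimated reads in any library, and of Cd14 and Lbp, with at most 46.69. Values with the strictest filter (5 CPM in 3 libraries) exist for Tlr2, Tlr5, Ly96 and Myd88 alone.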

Other observations

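Of 23 listed microbial sensors outside the Toll family 19 were tested, of which 12 rose and 4 fell (84.2%, beside 57.0% of all tested genes), with a median log2 fold change of 0.27. With length and GC trends removed 5 of 18 rose and 2 fell (38.9%, beside 43.8% of all tested genes), and the median was 0.01. Casp4, the inflammatory caspase that binds LPS in the cytosol, went from 27.9 to 43.0 CPM in the libraries labelled Git2-knockout (log2 fold change 0.62, edgeR adjusted p = 1.67e-07). Naip5 and Naip6, which sense flagellin in the cytosol with Nlrc4, rose by 0.48 and 0.59 (edgeR adjusted p = 1.96e-07 and 3.59e-05), though the Naip genes are near-identical copies among which reads may be split unevenly. Nlrc4 rose by 0.19 (adjusted p = 0.00804) and lay at -0.01 with length and GC trends removed. The peptidoglycan-binding protein Pglyrp1 fell from 32.8 to 18.3 CPM and the inflammasome sensor Nlrp6 from 133 to 97.3 CPM (log2 fold changes -0.85 and -0.45, edgeR adjusted p = 1.34e-07 and 3.89e-07).

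The genes whose log2 CPM followed that of Tlr4 most closely over the 6 libraries were Efcab5, Sstr1, Nde1, Recql and Clca4a, with Pearson's r of 0.991, 0.989, 0.988, 0.987 and 0.986. Among 11452 genes compared 259 had an r above 0.9, and with 6 libraries that share the group difference these values are a description only.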
